A study of Mus musculus with 6 samples.

Results

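The genes described here are Ly6e, Ly6a, Ly6i, Ly6c1, Ly6c2 and Ly6g, 6 genes of the Ly6 cluster on mouse chromosome 15, in macrophages sorted from skin wounds of young and aged mice. They were found by their symbols among the 15168 genes of the count table, and all 6 were present. The table holds genes with at least 10 counts over all samples, and the member with the fewest counts, Ly6c1, had 169. The genes were chosen by name with the results of the aged against young comparison in view, and Ly6a was already known to be among the largest falls. The fold changes and adjusted p-values below are therefore a description of these samples, and how many of the 6 genes moved supports nothing further.

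The data were bulk RNA-sequencing of cells from full-thickness wounds on the back of female wild-type C57BL/6J mice, taken on Day 3 after wounding. There were 3 samples from young mice (12 weeks) and 3 from aged mice (24 months), with 1 sample of each age labelled set A, B and C. Live cells carrying CD45, CD11b, F4/80 and CD64 were sorted. The sort did not exclude cells carrying Ly6G, so it could hold neutrophils, and the mice were housed at 2 facilities that are not given per sample. No label says that the samples came from separate animals, so a p-value here measures only the spread between these samples. Transcripts of the sort markers were present in both ages, with Ptprc (CD45) at 210 ± 17.3 CPM (counts scaled to library size; SD, n = 3) in the young and 251 ± 59.1 CPM in the aged samples. Itgam (CD11b) was at 376 ± 36.7 and 750 ± 63.7 CPM, Adgre1 (F4/80) at 329 ± 35.3 and 204 ± 34.8 CPM, and Fcgr1 (CD64) at 450 ± 24.3 and 500 ± 13.7 CPM. Totals were 15270103 to 17927483 counts per sample, and 1 count was worth 0.0553 to 0.0701 CPM. In bulk RNA, fewer cells of a type and less RNA per cell cannot be told apart.

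Ly6 proteins are small, cysteine-rich proteins of the Ly6/uPAR family that fold into a three-finger domain and are tethered to the outer face of the cell membrane by a glycosylphosphatidylinositol (GPI) anchor. Ly6c1 and Ly6c2 encode the Ly6C antigen, by which inflammatory (classical) monocytes are told from patrolling monocytes, and Ly6C declines as monocytes mature into macrophages. Ly6a encodes Sca-1, a marker of haematopoietic progenitors that is also carried by endothelial cells and lymphocytes, and it is induced by interferon. Ly6e is broadly expressed and interferon-inducible, Ly6i is a myeloid gene close in sequence to Ly6a, and Ly6g encodes the neutrophil antigen Ly6G.

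In the mm10 annotation of the files, the 6 protein-coding genes lay over 204 kb of chromosome 15. Ly6e came first at chr15:74955051-74959905 on the plus strand. It was followed on the minus strand by Ly6i (chr15:74979534-74983430), Ly6a (chr15:74994877-74998031), Ly6c1 (chr15:75044018-75048830) and Ly6c2 (chr15:75108158-75111970). Ly6g came last at chr15:75155240-75159126 on the plus strand. No annotated gene overlapped any of the 6 (GENCODE M21), so reads of an antisense partner did not enter their counts in that annotation.

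The Ly6C antigen comes from a pair of genes whose counts have to be told apart by a few bases, and the start of both coding sequences is shown for that reason. These are the first 150 coding bases of the longest coding transcript in GENCODE M21, with the 6 bases that differ between the copies in capitals.
Ly6c1: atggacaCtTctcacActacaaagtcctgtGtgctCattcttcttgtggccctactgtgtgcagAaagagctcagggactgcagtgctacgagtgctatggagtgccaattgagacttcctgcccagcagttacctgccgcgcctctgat
Ly6c2: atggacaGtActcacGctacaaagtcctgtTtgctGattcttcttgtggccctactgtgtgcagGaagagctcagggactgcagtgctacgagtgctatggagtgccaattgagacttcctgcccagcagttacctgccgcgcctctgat
Over the whole coding sequence of 396 bases, 9 bases differed (97.7% identity). Of all stretches of 150 bases, the length of a read, 39 were shared by the transcripts of both genes, 2.29% of those of Ly6c1 and 1.42% of those of Ly6c2. The transcripts of Ly6e, Ly6a, Ly6i and Ly6g shared no stretch of that length with any other gene. Ly6a and Ly6i were 86.4% identical over the coding sequence, and Ly6e was the most distant, with 50.0% to 52.8% identity to the others. Reads of Ly6c1 and Ly6c2 could thus be exchanged in part by the counting, and their values carry that uncertainty.

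Ly6e was the most abundant of the genes and was lower in macrophages of aged wounds. It was measured at 2132, 2171 and 2437 CPM in young samples A, B and C and at 1340, 908 and 1351 CPM in aged samples A, B and C. Every aged sample lay below every young sample, which was also so for 19% of all genes tested. The mean fell from 2247 ± 166 to 1199 ± 253 CPM (SD, n = 3), which ranked Ly6e 57 among all genes of the count table in young and 130 in aged samples. The log2 fold change was -0.91 (standard error 0.20, edgeR quasi-likelihood test, Benjamini-Hochberg adjusted p = 0.0181), a change of less than 2-fold. Without young B, young C or aged C the log2 fold change stayed at -0.92, -0.84 and -0.99, while the edgeR adjusted p-value was 0.0542, 0.0859 and 0.0553.

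Ly6a, the gene of Sca-1, showed the largest fall of the 6. Young samples A, B and C held 115, 237 and 256 CPM, and aged samples A, B and C held 25.8, 24.8 and 89.4 CPM. Here too no aged sample reached the lowest young sample, but aged C stood well above aged A and aged B, and young A well below the other young samples. Mean expression dropped 4.35-fold with age, from 203 ± 76.4 to 46.7 ± 37.0 CPM. The log2 fold change was -2.12 (standard error 0.48, 95% interval -3.19 to -1.04, edgeR quasi-likelihood test, Benjamini-Hochberg adjusted p = 0.0193). Of all tested genes, 0.396% had a lower value. Without aged C the log2 fold change of Ly6a was -2.997. Without young B and without young C it stayed at -1.98 and -1.92, while the edgeR adjusted p-value rose to 0.0657 and 0.0883.

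Ly6i, the close relative of Ly6a, was far less abundant and fell as well. Its 3 young samples gave 26.6, 21.7 and 27.9 CPM and its 3 aged samples 11.3, 5.10 and 11.4 CPM, without overlap. The means were 25.4 ± 3.28 and 9.25 ± 3.60 CPM, a 2.75-fold difference. Its log2 fold change was -1.46 (standard error 0.29, 95% interval -2.10 to -0.82, edgeR quasi-likelihood test, Benjamini-Hochberg adjusted p = 0.0122). Without young C the log2 fold change stayed at -1.39, while the edgeR adjusted p-value was 0.0695.

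The Ly6C genes did not follow Ly6a and Ly6i. Ly6c2, the more abundant of the pair, had 120, 211 and 306 CPM in the young samples and 248, 116 and 218 CPM in the aged samples. The ages overlapped, and the lowest sample of each, young A and aged B, were nearly equal. Means were 212 ± 92.7 and 194 ± 69.0 CPM. No difference was detected (log2 fold change -0.13, standard error 0.34, edgeR quasi-likelihood test, Benjamini-Hochberg adjusted p = 0.818), but its 95% interval of -0.89 to 0.63 leaves room for a change of either sign. The sign itself turned without young C (0.23) and without aged B (0.15).

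Ly6c1 was close to the limit of detection. Its counts were 11, 21 and 19 in young and 7, 86 and 25 in aged samples, or 0.608, 1.23 and 1.26 CPM against 0.490, 5.48 and 1.54 CPM. Aged B alone stood apart, and aged A was the lowest of all samples. The means of 1.03 ± 0.367 and 2.50 ± 2.63 CPM did not differ beyond this spread (log2 fold change 1.29, standard error 0.72, edgeR quasi-likelihood test, Benjamini-Hochberg adjusted p = 0.234), and without aged B the log2 fold change was 0.01. Aged B also held the most transcripts of skin cells. The 8 keratinocyte markers, all present in the table, summed to 164 CPM there against 0.719 to 2.10 CPM in the other samples. The 9 fibroblast markers in the table summed to 126 CPM in aged B against 29.2 to 45.5 CPM elsewhere, and the 9 endothelial markers to 39.9 CPM against 26.6 and 32.4 CPM in the other aged and 11.4 to 12.1 CPM in young samples. Most of every endothelial sum was Pecam1 alone, at 10.1, 7.16 and 6.80 CPM in young and 24.4, 25.1 and 28.3 CPM in aged samples A, B and C. The gap between the ages in these sums is thus largely that of 1 gene. The sort for CD45, CD11b, F4/80 and CD64 should remove keratinocytes, fibroblasts and endothelial cells, and its antibody panel also held EpCAM, PDGFRα, CD31 and TIE2. The part of these cells in the Ly6c1 counts was not tested.

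As a share of the Ly6C counts, Ly6c1 made up 0.504%, 0.580% and 0.409% in young samples and 0.197%, 4.50% and 0.703% in aged samples. In aged B the 95% Wilson interval was 3.65% to 5.52%, which covers counting error only. The shares of the ages overlapped (two-sided exact permutation test, p = 0.7, in a design that can give no less than 0.1), and Ly6c2 supplied the rest of the Ly6C counts in every sample. With the pair counted as 1 gene the log2 fold change was -0.12 (standard error 0.34, edgeR quasi-likelihood test, Benjamini-Hochberg adjusted p = 0.832).

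Ly6g, the neutrophil gene of the cluster, was low and did not differ detectably. Young samples were at 6.14, 10.9 and 7.40 CPM and aged samples at 9.60, 6.18 and 9.51 CPM, fully intermixed. The log2 fold change was 0.05 with a 95% interval of -0.58 to 0.68 (edgeR quasi-likelihood test, Benjamini-Hochberg adjusted p = 0.923), and its sign turned without any 1 of young A, young C, aged A and aged C (-0.12, -0.02, -0.05 and -0.04). Other neutrophil markers ranged from below to well above Ly6g in CPM. Of 15 listed, 14 were tested, and they summed to 718, 1222 and 1178 CPM in the young and 1591, 930 and 1562 CPM in the aged samples. Of these 14, 4 were higher and 0 lower in aged samples at an adjusted p-value under 0.05 in edgeR (4 and 1 unadjusted, 4 and 0 in DESeq2, 4 and 1 in limma-voom), with Cd177, a neutrophil surface protein, at 19.3 ± 5.65 and 59.3 ± 25.6 CPM (log2 fold change 1.62). Of all tested genes, 9.73% were higher and 7.97% lower at an adjusted p-value under 0.05 in edgeR. The part of neutrophils in the Ly6g counts was not tested.

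**Figure D1:**
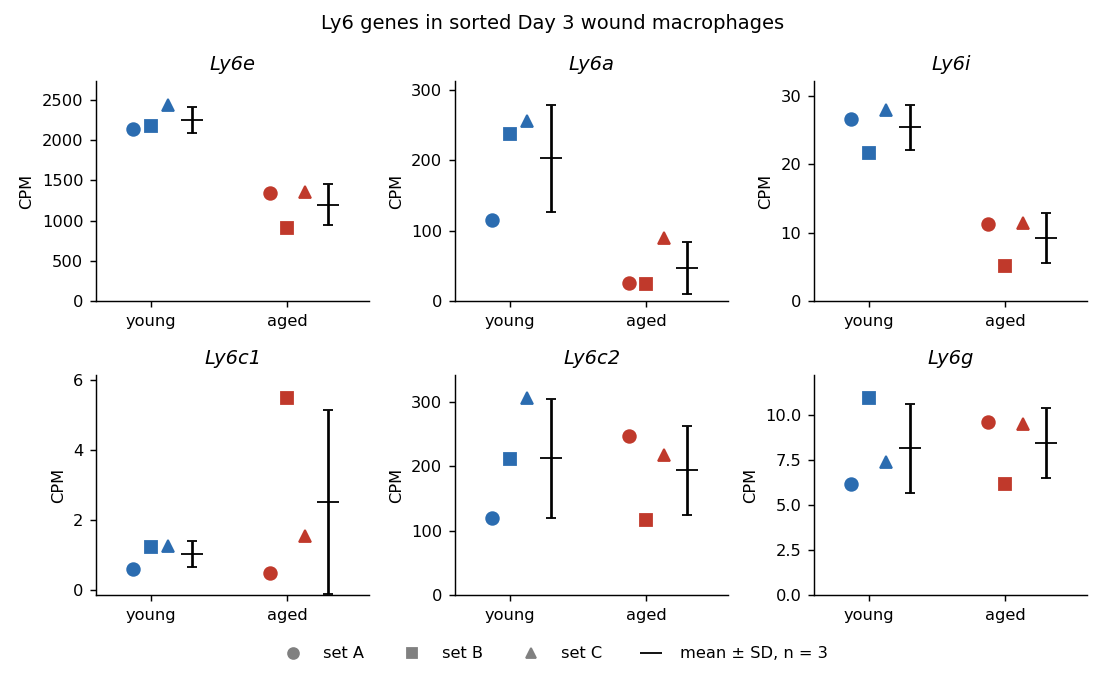
Expression of the 6 Ly6 genes in CPM (vertical axes from 0, or just below 0 where the error bar of Ly6c1 crosses it) in each young (blue) and aged (red) sample, with the set letter as the symbol and black bars for the mean ± SD of 3 samples. Ly6e, Ly6a and Ly6i separate the ages, Ly6c2 and Ly6g overlap, and Ly6c1 is high in aged B only.

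Of the 6 genes, 3 (Ly6e, Ly6a and Ly6i) were lower in aged macrophages at an adjusted p-value under 0.05, against 7.97% of the 11878 genes tested. Of these 3, Ly6a and Ly6i also changed more than 2-fold, the threshold for calling a gene here, against 4.2% of tested genes. None was higher, against 4.59% called higher and 9.73% higher at an adjusted p-value under 0.05 without the 2-fold threshold, and none had every aged sample above every young sample, which 19.2% of tested genes had. The absence of a gene that rose holds for edgeR, DESeq2 and limma-voom, and without adjustment of the p-values as well. Because the genes were chosen with this comparison in view, nothing is read from these counts.

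Levels were compared between genes per kilobase of the longest coding transcript. In young macrophages Ly6e was highest at 985 ± 72.7 CPM per kb. Ly6c2 at 258 ± 113 and Ly6a at 212 ± 80.0 CPM per kb followed and overlapped, and then came Ly6i at 22.0 ± 2.84, Ly6g at 8.66 ± 2.63 and Ly6c1 at 1.22 ± 0.435 CPM per kb, which did not overlap. In aged macrophages the order was Ly6e at 526 ± 111, Ly6c2 at 236 ± 83.9 and Ly6a at 48.9 ± 38.7 CPM per kb, with no overlap between their samples. Ly6g at 8.96 ± 2.07, Ly6i at 8.00 ± 3.11 and Ly6c1 at 2.97 ± 3.11 CPM per kb came last, each overlapping the next. Over samples, Ly6c2 and Ly6a thus overlapped in young and were apart in aged macrophages, while within each of the 6 samples Ly6c2 was above Ly6a, in young A, B and C at 146 against 121, 257 against 248 and 372 against 268 CPM per kb.

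The composition of the Ly6 transcripts was read within each sample, where library scaling has no part. Ly6e made up 80.3% to 88.8% of the counts of the 6 genes in young and 80.4% to 85.2% in aged samples. Over all 6 genes, the share of Ly6a was 4.80%, 8.94% and 8.43% in young and 1.58%, 2.33% and 5.32% in aged samples and overlapped through young A and aged C (two-sided exact permutation test, p = 0.2, where 3 samples against 3 can give no less than 0.1). Ly6c2 made up 5.01%, 7.96% and 10.1% in young and 15.2%, 10.9% and 12.98% in aged samples, and Ly6g 0.256%, 0.411% and 0.244% against 0.587%, 0.580% and 0.566%, both without overlap and with the aged samples above. In CPM neither gene differed detectably, and Ly6e, the largest part of the total, was 1.87-fold lower in aged samples, so a larger share here is not a higher level. Ly6i made up 1.11%, 0.818% and 0.921% in young and 0.690%, 0.478% and 0.676% in aged samples, with the aged samples below. Each of these 3 shares gave p = 0.1 in the exact permutation test, the smallest possible. Ly6c1 made up 0.0253% to 0.0464% in young and 0.0300% to 0.514% in aged samples and overlapped. Among the 5 genes other than Ly6e, Ly6a held 42.9%, 49.2% and 42.8% of the counts in young samples and 8.74%, 15.7% and 27.1% in aged samples. Ly6c2 held 44.7%, 43.8% and 51.1% in young and 84.0%, 73.7% and 66.1% in aged samples. The ages did not overlap in either share of the 5 genes, but these shares were formed after the values were seen, and their p of 0.1 (two-sided exact permutation test) is the smallest possible and supports nothing further. These 5 genes together gave 269, 482 and 598 CPM in the young and 295, 158 and 330 CPM in the aged samples, and these sums overlapped.

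**Figure D2:**
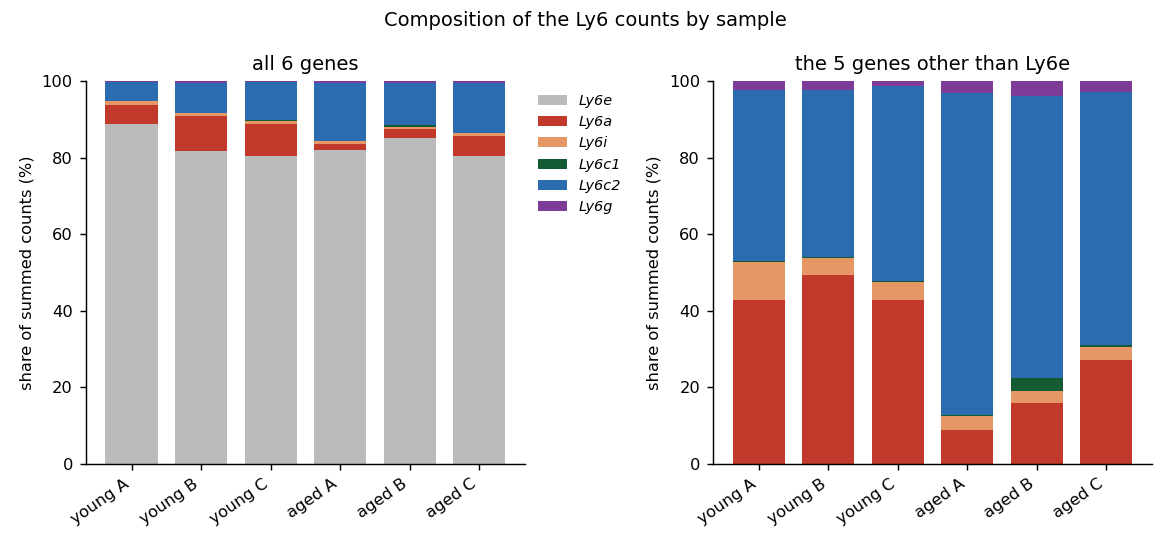
Share of the summed counts (%) held by each Ly6 gene in each sample, for all 6 genes (left) and for the 5 genes other than Ly6e (right). Ly6e fills over 80% of every bar on the left, and on the right Ly6a holds 42.8% to 49.2% in young and 8.74% to 27.1% in aged samples.

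The profile of each gene over the 6 samples was set beside those of all other tested genes with a mean of at least 10 CPM, by the root mean square difference of log2 CPM after centring each gene. The genes most like Ly6a were Phf11d, Mx1 and Ifi213, with differences of 0.21, 0.32 and 0.33 on the log2 scale, where the spread of Ly6a itself was 1.35. Mx1 encodes an antiviral GTPase induced by type I interferon, and Ifi213 belongs to the interferon-inducible p200 genes. Like Ly6a they were lowest in aged A and aged B and intermediate in aged C and young A.

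Nearest to Ly6e was H2-T23, which encodes the non-classical MHC molecule Qa-1 (difference 0.10), followed by Mrpl30 (0.11), a mitochondrial ribosomal protein gene, and Gss (0.12), the gene of glutathione synthetase. Ly6i lay closest to Cd72, Tipin and Sap30 (0.25, 0.28 and 0.31), and Cd72, a C-type lectin best known from B cells, had means of 67.0 ± 7.96 and 19.7 ± 5.69 CPM. For Ly6c2 the nearest named genes were Plac8, a gene of classical monocytes (0.23), and Tpi1, the glycolytic triosephosphate isomerase (0.26). The means of Plac8 were 151 ± 42.1 and 149 ± 74.7 CPM. Ly6c1, with a spread of 1.03, lay nearest to Vcam1, Ccl8 and Sparc (0.31, 0.40 and 0.42), and Ly6g, whose own spread was 0.32, lay nearest to Herc4, Ptger4 and Jak3 (0.04, 0.09 and 0.10). Between members the smallest differences were 0.37 for Ly6e with Ly6i and 0.39 for Ly6c2 with Ly6g. These are descriptions over 6 samples that share their libraries.

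**Figure D3:**
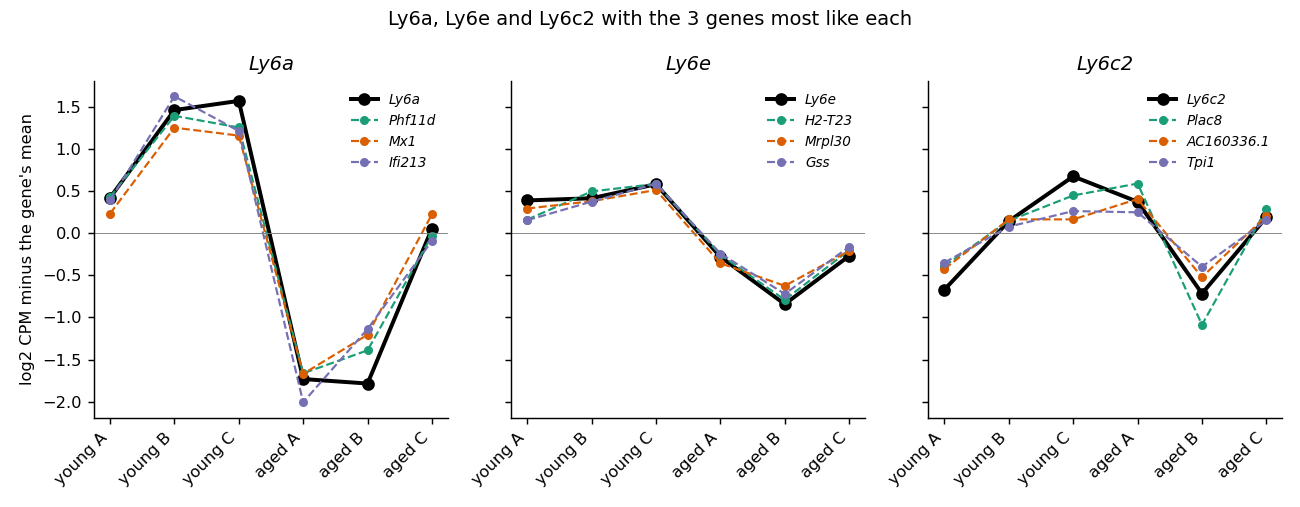
Centred log2 CPM (log2 CPM minus the mean of the gene over the 6 samples) of Ly6a, Ly6e and Ly6c2 (black) and of the 3 genes most like each (dashed), by sample. Ly6a and its neighbours drop furthest in aged A and aged B, and Ly6c2 and Plac8 are low in young A and aged B.

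Interferon-stimulated genes were described because several Ly6 genes are interferon targets. Of 47 such genes, all tested and none of them a Ly6 gene, 29 were lower and 0 higher in aged macrophages at an adjusted p-value under 0.05 in edgeR (39 and 0 unadjusted, 31 and 0 in DESeq2, 33 and 0 in limma-voom). Of these, 22 were more than 2-fold lower, 46.8% of the list against 4.2% of all tested genes. The median log2 fold change was -0.997, against -0.02 for all tested genes and -0.52 for the 6 Ly6 genes. Ifit3, an antiviral RNA-binding protein gene, was lowest among those with a mean of at least 10 CPM, falling from 74.9 ± 22.3 to 14.6 ± 8.81 CPM (log2 fold change -2.36, edgeR adjusted p = 0.00709). Slfn1 was at the other end, with 56.2 ± 11.0 and 51.4 ± 8.43 CPM (log2 fold change -0.13). The 47 genes summed to 3305, 4234 and 4511 CPM in the young and 2008, 1853 and 2904 CPM in the aged, with young A lowest of the young and aged C highest of the aged, as in Ly6a. For this list and those below, the shares over all tested genes at an adjusted p-value under 0.05 were 7.97% lower and 9.73% higher.

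Genes of interferon receptors and signalling moved both ways. Of 15 tested, 4 were lower and 4 higher at an adjusted p-value under 0.05 in edgeR, with a median log2 fold change of 0.11 (0.05 without aged A, 0.06 without aged C and 0.22 without aged B). Irf7, the transcription factor that amplifies the type I interferon response, fell from 335 ± 87.1 to 112 ± 56.6 CPM (log2 fold change -1.58, edgeR adjusted p = 0.0152). Socs1, which inhibits cytokine and interferon signalling, rose from 35.7 ± 21.3 to 112 ± 30.0 CPM (log2 fold change 1.65, edgeR adjusted p = 0.0172).

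Classical monocyte genes, the class that Ly6C marks, did not fall as a group. Of 12 tested, 3 were higher and 0 lower in aged samples at an adjusted p-value under 0.05 in edgeR (6 and 1 unadjusted, 6 and 1 in DESeq2, 3 and 1 in limma-voom), and the median log2 fold change was 0.59. Vcan, which encodes the matrix proteoglycan versican, rose from 29.2 ± 7.69 to 128 ± 26.5 CPM (log2 fold change 2.13, edgeR adjusted p = 0.00136). Ms4a4c was lowest, at 389 ± 94.5 and 211 ± 84.3 CPM (log2 fold change -0.88, edgeR adjusted p = 0.0678). Ccr2, the chemokine receptor of classical monocytes, was named after its values were seen. It was at 356 and 318 CPM on average and overlapped between the ages like Ly6c2 (log2 fold change -0.16, edgeR adjusted p = 0.706).

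Non-classical monocyte genes gave 3 higher and 1 lower of 13 tested (median log2 fold change 0.19, -0.07 without aged A and 0.34 without aged B), with Itgal at 7.60 ± 0.484 and 17.1 ± 8.35 CPM (log2 fold change 1.16, edgeR adjusted p = 0.0319) and Nr4a1, the factor on which patrolling monocytes depend, at 226 ± 125 and 154 ± 59.4 CPM (log2 fold change -0.56, edgeR adjusted p = 0.345). The gene that fell was Cx3cr1, the fractalkine receptor of patrolling monocytes, named after its values were seen, from 8.50 ± 3.08 to 2.34 ± 1.21 CPM (log2 fold change -1.87, edgeR adjusted p = 0.0155). Of 14 macrophage genes, 5 were lower and 2 higher (median -0.22, -0.14 without young B, -0.14 without aged C and -0.49 without aged B). C1qa, a complement subunit made by mature macrophages, fell from 1138 ± 47.8 to 535 ± 153 CPM (log2 fold change -1.09, edgeR adjusted p = 0.0130). Among 10 transcription factors of monocytes, 2 were higher and 0 lower at an adjusted p-value under 0.05 in edgeR (4 and 1 unadjusted, 2 and 0 in DESeq2, 3 and 0 in limma-voom), with Runx1 at 39.1 ± 8.33 and 73.5 ± 7.97 CPM. The GPI anchor genes, which every Ly6 protein needs for its attachment, gave 1 lower and 1 higher of 25 tested (median -0.19, and -0.32 without young A).

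**Figure D4:**
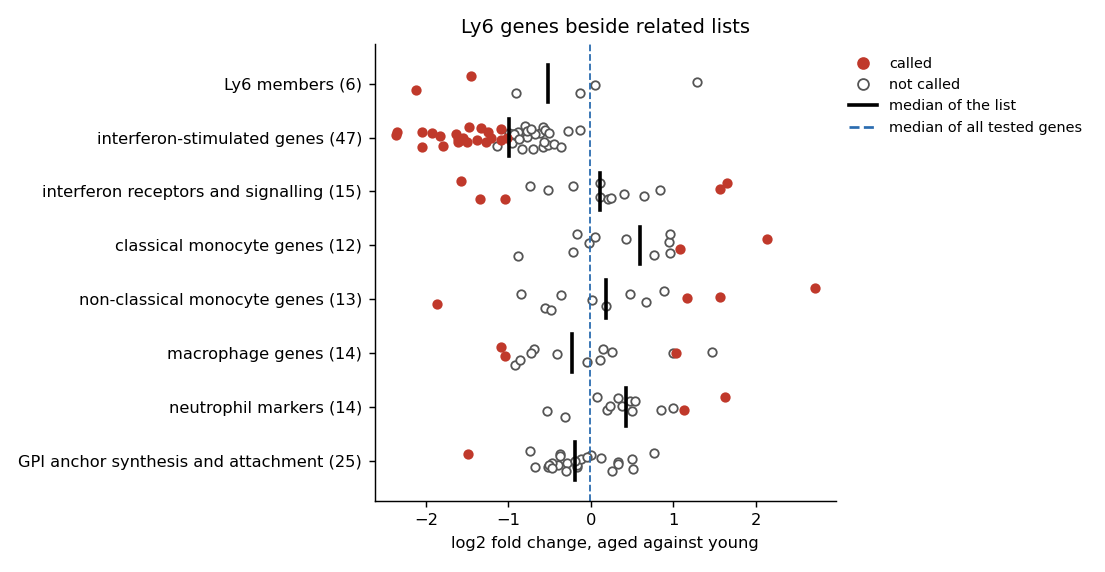
Log2 fold change of aged against young samples (horizontal axis) for the 6 Ly6 genes and for related lists of genes (rows, with the number tested), filled where called (adjusted p-value under 0.05 and over 2-fold), with the list median as a black bar and the median of all tested genes as a dashed line. The interferon-stimulated genes have a median of -0.997 and none lies above 0, and the classical monocyte genes have a median of 0.59.

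Sca-1 is also carried by lymphocytes and endothelial cells, so their markers were read beside Ly6a. The 9 T and NK cell markers in the table (of 11 listed) summed to 5.88 to 8.96 CPM in the young and 3.40 to 13.9 CPM in the aged samples, and 1 of 4 tested, Cd4, was called lower. The 3 B and plasma cell markers in the table summed to 4.62 to 12.9 CPM in the young and 2.61 to 4.08 CPM in the aged samples. Most of each sum was Cd79b, the 1 tested, which was called lower, at 7.73 ± 4.45 and 2.59 ± 0.814 CPM (log2 fold change -1.58, edgeR adjusted p = 0.0308). Cd79a, at 0.0369 and 0.253 CPM on average, and Ms4a1, at 0.179 and 0.325 CPM, were too low to test and did not fall. Cd3e, a defining T cell marker, was near 0, at 0.233 and 0.777 CPM on average. Of 10 endothelial markers, 3 were tested and 1 was called higher, Pecam1 at 8.03 ± 1.82 and 25.9 ± 2.08 CPM (log2 fold change 1.69, edgeR adjusted p = 0.00220). The other tested markers did not pass, with Egfl7 at 0.486 and 1.28 CPM (log2 fold change 1.37) and Kdr at 1.95 and 1.46 CPM (log2 fold change -0.40). Of those too low to test, Plvap was at 0.0701, 7.90 and 0.741 CPM in aged A, B and C and at most 0.411 CPM in young samples, high in aged B alone, and Cdh5, the endothelial cadherin, was at 0.429 and 0.127 CPM. Of 6 erythroid markers, 5 were tested and 4 were lower in aged samples at an adjusted p-value under 0.05 in edgeR, and the 6 gave sums of 153, 490 and 423 CPM in the young and 41.8, 152 and 106 CPM in the aged samples. Erythroid cells are not among the carriers of Sca-1 named above. The part of any of these cell types in the fall of Ly6a was not tested. The sort for CD45, CD11b, F4/80 and CD64 selects against most of them, and the antibody panel of the sort also held the endothelial markers CD31 and TIE2 and the erythroid marker TER119.

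Along the chromosome, the 3 genes that fell, Ly6e, Ly6i and Ly6a, lay next to each other at 1 end of the cluster, and Ly6c1, Ly6c2 and Ly6g lay at the other. Between Ly6c2 and Ly6g lies Ly6a2 (chr15:75131377-75135128, minus strand), which the files list as a transcribed pseudogene and which is no member. It rose with age. Its counts were 56, 79 and 90 in young and 349, 138 and 249 in aged samples, or 4.56 ± 1.43 and 16.2 ± 7.86 CPM, and the lowest aged sample exceeded the highest young sample. The log2 fold change was 1.83 (standard error 0.38, edgeR quasi-likelihood test, Benjamini-Hochberg adjusted p = 0.0139). Without young C the log2 fold change of Ly6a2 was 2.07, while the edgeR adjusted p-value was 0.0538. The other tested gene within 200 kb, the non-coding Gm39556 next to Ly6e, was at 2.47 ± 0.986 and 1.82 ± 0.0829 CPM (log2 fold change -0.44, edgeR adjusted p = 0.462). Within 1 Mb, 18 genes other than the 6 were tested, 1 was called lower and 2 higher, Ly6a2 being 1 of those, and their median log2 fold change was -0.36. Over all tested genes, 4.2% were called lower and 4.59% higher, and the median log2 fold change was -0.02.

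**Figure D5:**
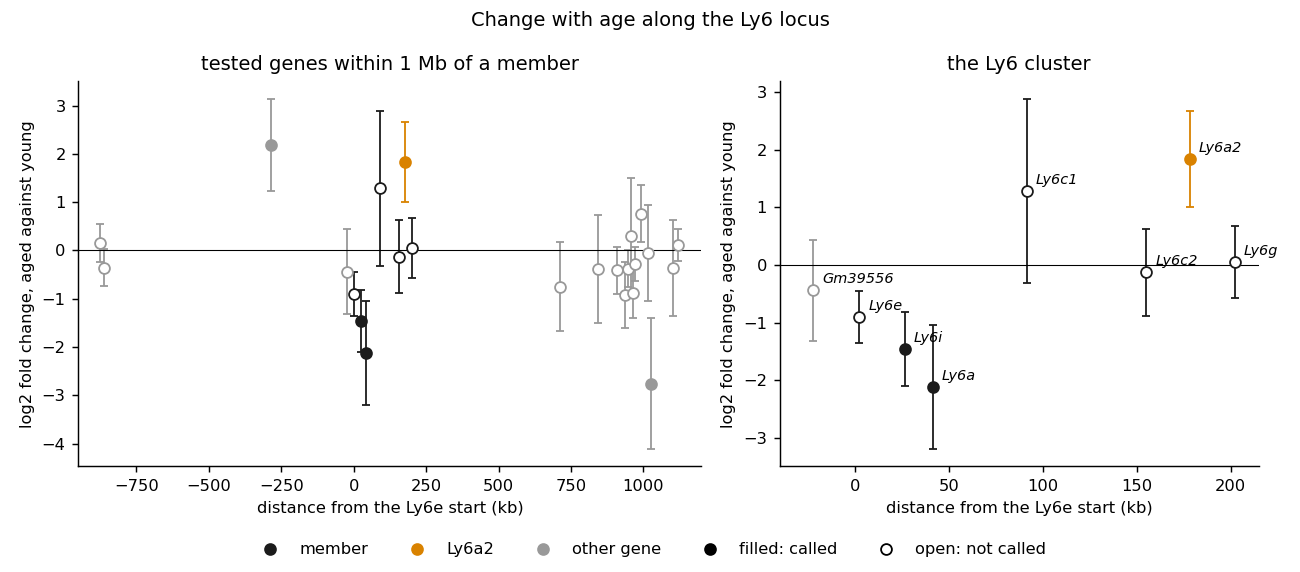
Log2 fold change of aged against young samples with its 95% interval (vertical axis) by distance from the start of Ly6e in kb (horizontal axis), for tested genes within 1 Mb of a member (left) and for the Ly6 cluster alone (right), filled where called. Ly6e, Ly6i and Ly6a lie below 0 at 1 end of the cluster, and Ly6a2 at 1.83 lies above 0 near the other.

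The promoters of Ly6c2 and Ly6a2 are shown because the genes are neighbours with nearly the same upstream sequence but different values, and that of Ly6c1 because its gene has nearly the same coding sequence as Ly6c2 but far fewer transcripts. Each is the 250 bases before the start in RefSeq (GRCm38.p6, minus strand, written 5′ to 3′), with matches to the motifs searched in capitals.
Ly6c2, chr15:75111972-75112221: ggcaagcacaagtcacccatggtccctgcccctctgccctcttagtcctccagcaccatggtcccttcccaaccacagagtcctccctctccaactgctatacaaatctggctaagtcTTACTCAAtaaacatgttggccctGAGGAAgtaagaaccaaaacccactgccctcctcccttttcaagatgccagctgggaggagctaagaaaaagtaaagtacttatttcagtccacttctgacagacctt
Ly6a2, chr15:75135129-75135378: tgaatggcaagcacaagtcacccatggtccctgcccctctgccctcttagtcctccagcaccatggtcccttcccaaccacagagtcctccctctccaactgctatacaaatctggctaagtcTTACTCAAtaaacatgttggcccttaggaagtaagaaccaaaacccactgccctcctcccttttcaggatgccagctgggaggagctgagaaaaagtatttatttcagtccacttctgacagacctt
Ly6c1, chr15:75048838-75049087: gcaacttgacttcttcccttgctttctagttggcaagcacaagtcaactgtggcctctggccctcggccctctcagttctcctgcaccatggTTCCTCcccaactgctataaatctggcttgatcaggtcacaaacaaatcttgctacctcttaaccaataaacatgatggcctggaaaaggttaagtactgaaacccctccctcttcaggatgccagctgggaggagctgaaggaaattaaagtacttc
The upstream sequences of Ly6c2 and Ly6a2 were 94.5% identical, with 4 mismatches and 10 gap positions, and those of Ly6c1 and Ly6c2 were 57.7% identical. For comparison, mean expression of Ly6c2 was 212 and 194 CPM in young and aged samples and that of Ly6a2 was 4.56 and 16.2 CPM. RefSeq promoters were matched for Ly6c1, Ly6c2 and Ly6g of the 6 genes. Ly6a, Ly6e and Ly6i were not matched.

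Letters of 5 motifs were searched on both strands of these 250 bases. GAGGAA, the core bound by the myeloid factor PU.1, was found in Ly6c2, in Ly6c1 on the other strand (TTCCTC) and in Ly6g, but not in Ly6a2, and in 23.3% of all 32851 promoters. TTNNGNAA, the C/EBP motif, was found in Ly6c2 and Ly6a2 (TTACTCAA in both) and in Ly6g, and in 36.8% of all promoters. The interferon-stimulated response element GAAANNGAA (7.13% of all promoters), the STAT motif TTCNNNGAA (7.02%) and the AP-1 motif TGANTCA (6.75%) were found in none of the 3 member promoters or in that of Ly6a2. No searched motifs overlapped in the sequences shown, and a match is a description of letters only.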

How the data were processed

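Sorted macrophages, in 3 young and 3 aged samples, were sequenced from both ends (150 bases) after SMART-Seq v4 amplification. Per the submitters' processing notes and the methods, the authors aligned reads with STAR 2.7.3a to mm10 and used Partek Flow with Ensembl transcripts 102 to quantify genes. The authors deposited the expected counts per gene without normalisation. Use of strand is not given in the sources used here. A second deposited table, with signals scaled by DESeq2 and the authors' p-values and fold changes, was not used.

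Expected counts (30.3% to 33.9% not whole) were rounded and tested in R 4.3.3 with edgeR 4.0.16, with TMM scaling, filterByExpr and its quasi-likelihood test between the ages, adjusted by Benjamini-Hochberg over 11878 genes. The design had assumed whole counts. Called genes passed 0.05 on the adjusted p-value and changed by more than 1 on the log2 scale. CPM use TMM-scaled library sizes (factors 0.904 to 1.11), and log2 CPM a prior count of 2. Intervals are 95%. The biological coefficient of variation was 0.239. Replicates differed by more than sampling noise. Methods were tested on simulated data, where the share of false calls exceeded 0.05 with edgeR, DESeq2 and limma-voom.

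The members and lists were chosen with earlier results of these data known. Named genes are the 6 members, the extremes of each list with a mean of at least 10 CPM, the 3 genes most like each member, tested genes within 200 kb and the sort markers. Others were named after their values were seen. Coordinates are those of the deposited table, in mm10, and 99.1% of 14855 genes matched by symbol had the same span in GENCODE M21. Alternatives were DESeq2 1.42.0, limma-voom (limma 3.58.1) with quality weights, DESeq2 size factors, no filter, at least 10 counts in every sample, no fold threshold, the set letter as a block, summed paralogs and leaving out each sample. Sequences were compared with Biopython 1.88 and plots drawn with matplotlib 3.10.9.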

Additional observations from a re-analysis of the deposited data

How the results depend on the processing

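The 2 called members, Ly6a and Ly6i, numbered 2 under DESeq2, limma-voom, DESeq2 size factors, no filter, the stricter filter and the pair Ly6c1 and Ly6c2 summed. Leaving out 1 sample gave 0 (without young C) to 2 members, and 1 without young B. With Ly6a, Ly6c1, Ly6c2 and Ly6i summed to 1 gene, 0 were called, and the log2 fold change of the sum was -0.81 (edgeR adjusted p = 0.108). All genes called numbered 1044, 2103 with no fold threshold, and 213 (without young C) to 1503 (without young A) when 1 sample was left out, with 521 without young B and 475 without aged C. The log2 fold change of Ly6c2 was 0.23 without young C and 0.15 without aged B, that of Ly6c1 and Ly6c2 summed 0.24 and 0.15, and that of Ly6g -0.12, -0.02, -0.05 and -0.04 without young A, young C, aged A and aged C. Over all 6 samples left out in turn, these ran from -0.40 to 0.23 for Ly6c2, -0.39 to 0.24 for the sum and -0.12 to 0.33 for Ly6g. The cause was not tested. Ly6a, Ly6i and Ly6e kept their direction under every alternative run. The set letter as a replicate block gave 2 members and 1056 genes in all. Deviations of same-lettered samples correlated at 0.18, -0.02 and 0.11 for A, B and C. These values show no clear pairing by letter, but do not exclude one. Ly6c1 could not be tested under the filter of 10 counts in every sample, and at 7 to 86 counts its values are limited by depth.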

Other observations

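Of 34 other genes of the Ly6/uPAR family, 12 were in the table and 2 were tested. Plaur, which encodes the urokinase receptor, rose from 1169 ± 370 to 3005 ± 710 CPM (log2 fold change 1.36, standard error 0.26, edgeR quasi-likelihood test, Benjamini-Hochberg adjusted p = 0.0117). Cd59a, which encodes an inhibitor of the complement membrane attack complex, was at 4.75 and 1.72 CPM on average (log2 fold change -1.46, edgeR adjusted p = 0.0466). Ly6d, an epithelial and B cell gene of the same cluster, was not tested. It had 94 counts in aged B and at most 1 count in every other sample, and aged B was also the sample with the most keratinocyte transcripts. Their part in the Ly6d counts was not tested.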
